A study of Drosophila melanogaster with 3 samples.

Results

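The distal intronic regions of clockwork orange (cwo) are ChIP-seq regions inside introns, close to a gene's start but outside its promoter. A region was a member when its summit, the base of highest enrichment, lay more than 1000 and at most 10000 bp from the nearest annotated transcription start site (TSS) of any gene, inside a gene and in no exon of any transcript. The deposited list kept by the irreproducible discovery rate (IDR) procedure is here called the optimal list. Members were 2191 of its regions, 29.7% of the list, beside 3966 promoter, 348 deep intronic, 720 distal intergenic and 141 exonic regions. All 2191 were used, and no member was removed by a filter. They were set against 6184 distal intronic regions of the relaxed pooled list, defined in the same way, whose summits lay more than 1000 bp from every optimal summit. These are called background regions.

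The study mapped cwo on the Drosophila melanogaster genome in embryos, in 3 biological replicates of 1 group and no second condition. All samples were whole embryos of the cwo-GFP strain, 6 to 24 h old by the source name and of mixed sex, and the labels describe a stable transgenic line in which GFP was joined to the C-terminus of cwo. An antibody against GFP was used, on chromatin sonicated to a size range of 200 to 800 by the labels. The regions therefore report a tagged protein in a whole organism, and the labels used here do not state what drives the tagged gene or whether the untagged cwo gene was also present. Few cells with strong binding and many cells with weak binding cannot be told apart in such material. No RNA data were used here, so binding within a gene is not evidence of a change in its expression.

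cwo encodes a basic helix-loop-helix protein of the Orange family that represses transcription in the circadian clock of the fly, where it acts on genes that the activators Clk and cyc switch on. Proteins of this group recognise the palindrome CACGTG, the canonical E-box, which Myc-type activators bind too. Introns near a gene's start often carry enhancers, and long developmental genes of Drosophila spread many such elements over their first introns.

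The 7 strongest members with CACGTG within 100 bp of the summit are shown first because they carry the site that was most enriched in the class. They are the dm6 plus strand, centred on the summit with 100 bases on each side, read 5′ to 3′, with CACGTG in capitals.
kis, chr2L:246836-247036: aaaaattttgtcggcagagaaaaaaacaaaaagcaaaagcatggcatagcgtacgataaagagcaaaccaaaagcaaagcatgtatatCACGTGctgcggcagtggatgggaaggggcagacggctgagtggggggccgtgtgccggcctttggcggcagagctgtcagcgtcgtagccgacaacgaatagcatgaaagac
CG8745, chr3L:13863527-13863727: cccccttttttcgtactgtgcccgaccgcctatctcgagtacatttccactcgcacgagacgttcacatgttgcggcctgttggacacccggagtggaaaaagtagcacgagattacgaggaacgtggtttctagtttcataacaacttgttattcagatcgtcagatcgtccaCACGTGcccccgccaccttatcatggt
cwo, chr3R:10394351-10394551: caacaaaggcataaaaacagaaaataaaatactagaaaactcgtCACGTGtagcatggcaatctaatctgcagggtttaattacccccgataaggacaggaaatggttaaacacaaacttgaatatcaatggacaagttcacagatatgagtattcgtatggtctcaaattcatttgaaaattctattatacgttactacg
CG43367, chr3L:4219886-4220086: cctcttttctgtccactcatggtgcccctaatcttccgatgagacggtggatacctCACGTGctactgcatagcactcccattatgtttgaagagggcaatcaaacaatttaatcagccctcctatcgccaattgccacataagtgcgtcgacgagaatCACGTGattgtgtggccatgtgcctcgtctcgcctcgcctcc
ftz-f1, chr3L:18759264-18759464: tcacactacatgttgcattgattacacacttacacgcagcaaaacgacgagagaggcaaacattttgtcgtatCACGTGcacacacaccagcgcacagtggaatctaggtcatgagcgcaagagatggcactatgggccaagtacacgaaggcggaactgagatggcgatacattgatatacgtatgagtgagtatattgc
Wwox, chr2L:8001886-8002086: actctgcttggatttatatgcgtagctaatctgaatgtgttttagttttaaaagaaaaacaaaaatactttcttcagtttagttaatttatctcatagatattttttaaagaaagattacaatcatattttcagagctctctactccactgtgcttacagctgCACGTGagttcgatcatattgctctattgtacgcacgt
tara, chr3R:16229037-16229237: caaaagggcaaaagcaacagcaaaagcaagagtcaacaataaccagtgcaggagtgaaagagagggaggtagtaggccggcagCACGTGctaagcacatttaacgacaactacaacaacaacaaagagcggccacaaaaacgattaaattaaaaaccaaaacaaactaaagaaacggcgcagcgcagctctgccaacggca
The site lay at -9 bp from the summit in kis, -14 bp in tara and -24 bp in ftz-f1, and farther out in cwo (-53 bp), Wwox (66 bp) and CG8745 (77 bp). The CG43367 region held 2 sites, at -41 and 62 bp.

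The 2 strongest members without CACGTG in this window are given for contrast, with CACGAG, an E-box variant, in capitals where it occurred.
ush, chr2L:480977-481177: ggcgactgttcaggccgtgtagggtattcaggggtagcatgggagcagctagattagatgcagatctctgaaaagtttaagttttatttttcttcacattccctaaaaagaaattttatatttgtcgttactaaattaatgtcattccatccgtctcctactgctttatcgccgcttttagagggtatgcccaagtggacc
CG3764, chr3L:17010061-17010261: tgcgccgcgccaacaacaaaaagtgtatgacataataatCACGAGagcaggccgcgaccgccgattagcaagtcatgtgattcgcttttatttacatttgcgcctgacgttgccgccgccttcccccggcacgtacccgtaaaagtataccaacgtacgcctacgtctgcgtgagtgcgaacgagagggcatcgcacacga
In this window ush had neither CACGTG nor any of 3 variants searched, which were CACGCG and CACGTT besides CACGAG. Its summit lay 4.857 kb from the gene's start. A weaker ush member at 5.056 kb, rank 731, did have CACGTG within 100 bp of its summit. Both fell in the same region of each replicate, with replicate ranks of 12, 9 and 12. In the CG3764 region CACGAG lay at -58 bp from the summit.

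A pair of strong members with TGATAA and no CACGTG in the window was chosen after their values were seen. TGATAA, which holds the core bound by GATA factors, is in capitals on either strand.
simj, chr3L:10683031-10683231: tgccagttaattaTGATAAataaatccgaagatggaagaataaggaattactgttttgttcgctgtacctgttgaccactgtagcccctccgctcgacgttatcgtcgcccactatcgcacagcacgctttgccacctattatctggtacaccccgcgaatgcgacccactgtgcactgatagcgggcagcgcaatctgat
bon, chr3R:20594144-20594344: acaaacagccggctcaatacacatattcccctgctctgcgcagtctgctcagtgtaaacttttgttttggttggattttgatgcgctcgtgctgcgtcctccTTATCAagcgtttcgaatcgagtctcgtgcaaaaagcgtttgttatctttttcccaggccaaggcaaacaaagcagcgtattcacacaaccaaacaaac
The site lay at -84 bp in simj and at 5 bp in bon. simj encodes a subunit of the NuRD chromatin remodelling complex and bon a transcriptional cofactor of the TIF1 family.

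The 3 strongest members had nearly the same rank in every replicate. The optimal list was made from these replicates, so their ranks are a description. Signal below is a score the authors deposited for each region. Its scale is unknown here, and it was used only to rank regions within a list. kis, which encodes a CHD-type chromatin remodeller, held the strongest member. It had a signal of 16667 and rank 3 in the optimal list, and ranks of 3, 3 and 4 in replicates 1, 2 and 3. The region in ush, the Friend-of-GATA cofactor, had rank 9 and replicate ranks of 12, 9 and 12, and its nearest TSS was that of the neighbouring gene cbt. The region in CG3764 had rank 11 and replicate ranks of 11, 11 and 10. All 3 kept their place within a few ranks in each replicate.

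The member in cwo itself was less even. It had a signal of 8129 and rank 15, and replicate ranks of 28, 13 and 9. The region in Wwox, a WW-domain oxidoreductase gene, ranked 37 and had replicate ranks of 86, 37 and 30. Replicate 1 stood lower than both others at these regions. At ftz-f1, a nuclear receptor gene of the ecdysone cascade, the region ranked 30, with replicate ranks of 32, 33 and 31. At tara, which encodes a transcriptional co-regulator linked to cell cycle and sleep, it ranked 38, with replicate ranks of 40, 38 and 41. The other members among the strongest 20 lay in CG8745 and CG43367, with 2 regions each, and in Trl, atos, Ogdh, prage, CG46467, bmm, CG4928, sws and Pino. Trl encodes GAGA factor, Ogdh a subunit of the oxoglutarate dehydrogenase of the citric acid cycle, bmm a triglyceride lipase and sws a phospholipase of neurons and glia. Their replicate ranks lay between 13 and 87.

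**Figure D1:**
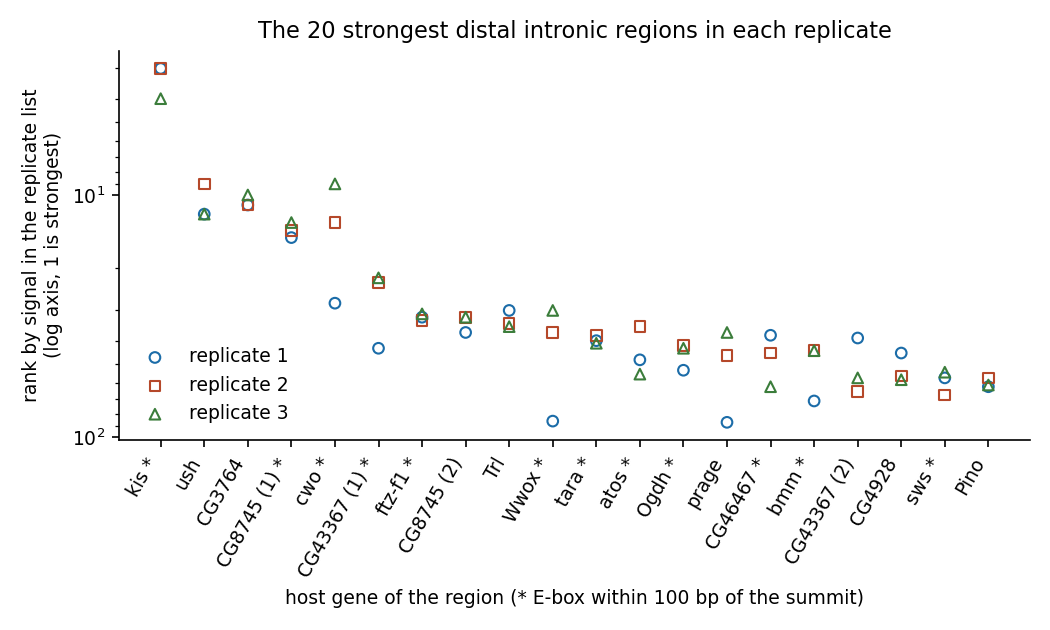
Rank by signal in each replicate's own list (log axis, 1 at the top) for the 20 strongest distal intronic regions, ordered by signal in the optimal list and named by host gene, with an asterisk where CACGTG lay within 100 bp of the summit. The kis region ranked 3, 3 and 4, while the cwo region ranked 28, 13 and 9 and the Wwox region 86, 37 and 30.

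The members as a whole spanned the optimal list. Their signal had a median of 413 (quartiles 310 and 650), from 248 to 16667, and their median rank was 3829. Promoter regions, with a summit within 1000 bp of a TSS, had a median rank of 3325. Deep intronic regions, more than 10000 bp from every TSS, had 4564 and distal intergenic regions 4509. Members made up 30 of the strongest 100 regions and 79 of the strongest 300 (26.3%). Of 9607 pooled distal intronic regions 22.8% were in the optimal list, against 24.6% of all 30000 pooled regions, 32.1% of promoter regions, 15.9% of distal intergenic and 14.3% of deep intronic regions. These are descriptions, since signal decided which regions the optimal list kept. At the edge of the list the last members, in CG17544, Mbs and ftz-f1, had signals of 249, 249 and 248. The first regions of the class outside it, in mim, Amph and Usp10, had 248 each.

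A replicate was counted as holding a member when the member's summit lay inside 1 of that replicate's strongest regions, taken in the same number as the optimal list. Replicates 1, 2 and 3 held 84.1%, 88.7% and 90.7% of the members, a mean of 87.8% ± 3.39 (SD, n = 3). The mean was 89.3% ± 2.64 for promoter regions, 85.4% ± 6.35 for distal intergenic and 83.3% ± 6.61 for deep intronic regions (SD, n = 3 each), and these ranges overlapped. All 3 replicates held 1555 members (71.0%), 477 were in 2 replicates, 153 in 1 and 6 in none. The optimal list was made from these replicates, so this is a description too. Across members that lay in any region of both lists of a pair, the Spearman correlation of signal was 0.791 for replicates 1 and 2 (2125 members), 0.742 for 1 and 3 (2125) and 0.832 for 2 and 3 (2155). Members share libraries and are not independent points. Close summits can also share a replicate region, and 246 members lay within 400 bp of a stronger summit.

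CACGTG lay within 100 bp of the summit in 329 of 2191 members (15.0%, 95% Wilson interval 13.6 to 16.6). It did so in 335 of 6184 background regions (5.42%, 4.88 to 6.01). The odds ratio was 3.08 (2.63 to 3.62; Fisher exact test, two-sided, p = 2.4e-41). Among all 155141 windows of that size laid end to end over the same class of sequence in the genome, 2.33% held it. The intervals cover counting error over regions only, and read depth is unknown. Regions are not replicates, so the comparison was repeated within each replicate's own list. The same number of strongest regions in replicates 1, 2 and 3 held CACGTG in 14.3%, 15.1% and 14.8% of their distal intronic ones, against 5.05%, 5.55% and 5.50% of the remaining ones. The means were 14.8% ± 0.377 and 5.37% ± 0.273 (SD, n = 3 each), and the ranges did not overlap.

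The sites gathered at the summit. The 329 members held 342 sites, and 13 members held 2 or more. The nearest site was a median of 27.5 bp from the summit in members and 35.5 bp in background regions that had one. It lay within 40 bp in 64.1% of such members and 54.9% of such background regions. Within 40 bp there were on average 24.8 sites per 1000 members and 20 bp bin, against 7.52 in background regions. Between 300 and 500 bp from the summit both were low, at 2.33 in members and 2.30 in background regions. The base that follows CACGTG was read 5′ to 3′ on both strands of each site. It was G on 6.87% of 684 site ends in members and on 12.0% of 682 in background regions. C took 36.7% and 35.0%, A 28.5% and 24.5%, and T 27.9% and 28.4%, in members and background regions in that order. These flanks were not tested.

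**Figure D2:**
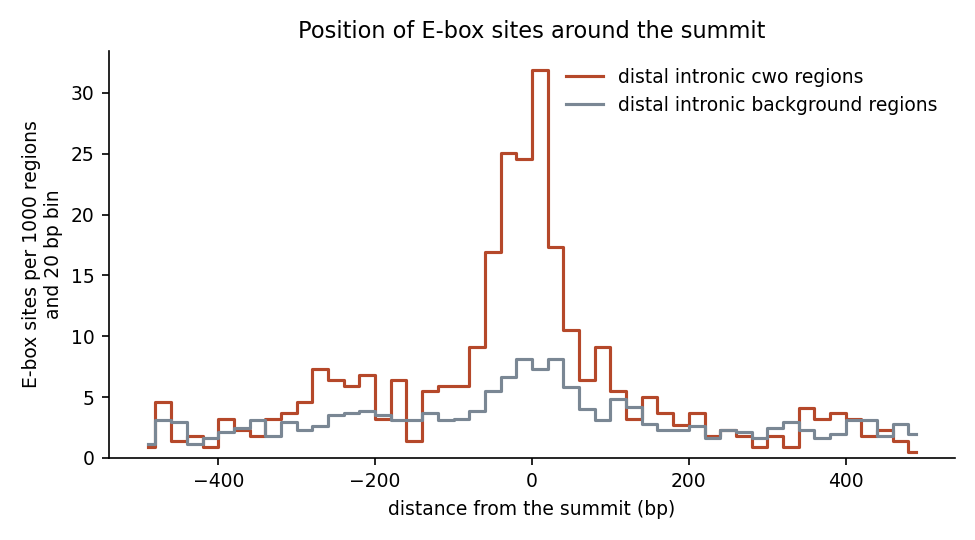
Number of CACGTG sites per 1000 regions in 20 bp bins by distance from the summit, for the 2191 distal intronic cwo regions (orange) and the 6184 background regions (grey). The member line peaks at 31.9 sites next to the summit, where the background line reaches 8.09 at most, and both lines fall to similar low values beyond 300 bp.

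The CACGTG share of distal intronic regions was above those of the other optimal classes, by differences that did not pass the adjusted tests. It was 15.0% in members, against 13.0% (12.0 to 14.1) of 3966 promoter regions, 11.8% (8.80 to 15.6) of 348 deep intronic and 11.9% (9.78 to 14.5) of 720 distal intergenic regions. The odds ratio for members was 1.18 (1.02 to 1.37) against promoters, with an adjusted p of 0.0639 in a two-sided Fisher exact test over 3 comparisons. It was 1.32 (0.936 to 1.87) against deep intronic regions, with an adjusted p of 0.120, and 1.30 (1.01 to 1.68) against distal intergenic regions, with an adjusted p of 0.0639. None passed 0.05, and the intervals leave room for ratios from 0.936 to 1.87. In the replicates' own lists the share in distal intronic regions was above that in promoter, deep intronic and distal intergenic regions in all 3 replicates. With TSSs of protein-coding genes only, all 3 comparisons passed, at 1.20, 1.41 and 1.37 (adjusted p = 0.0234, 0.0370 and 0.0234, Fisher exact test). With members limited to 5000 bp from a TSS, the ratio against deep intronic regions reversed to 0.921 (adjusted p = 0.516, Fisher exact test).

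**Figure D3:**
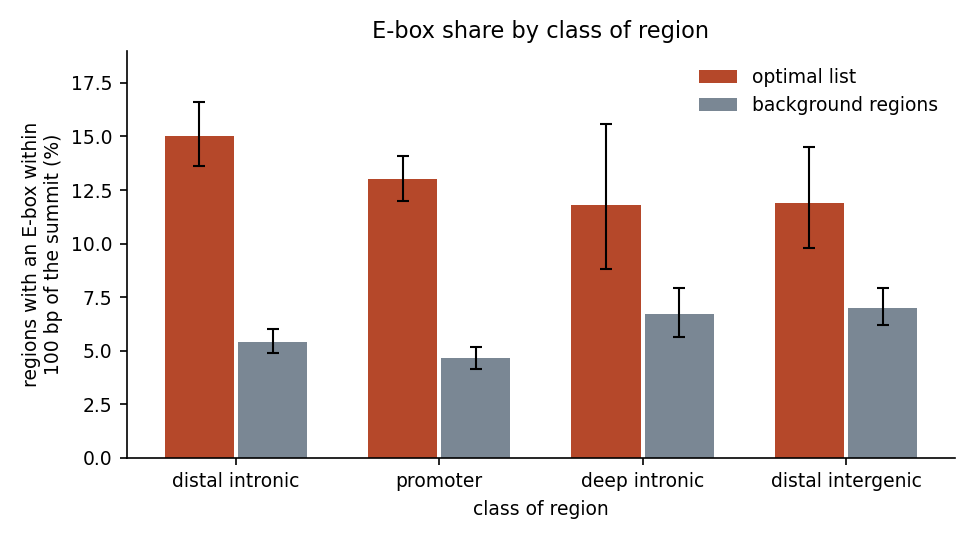
Share of regions with CACGTG within 100 bp of the summit by class of region, for the optimal list (orange) and for background regions of the same class (grey), with 95% Wilson intervals. Distal intronic regions stand at 15.0% in the optimal list and 5.42% in the background, and their interval overlaps those of the other optimal classes.

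CACGTG was more common among stronger members, a description across members with no test. Ordered by signal and split into 4 bins of 547 or 548, they held it in 24.6% (21.2 to 28.4), 14.6% (11.9 to 17.8), 10.8% (8.44 to 13.6) and 10.1% (7.81 to 12.9), from the strongest bin to the weakest. The weakest bin was still above the background share. In the replicates' own lists the strongest bin averaged 24.7% ± 0.324 and the weakest 8.85% ± 2.05 (SD, n = 3 each). The gap between them was 17.9, 15.3 and 14.5 percentage points in replicates 1, 2 and 3. The share of members in all 3 replicates was lower along the same bins, at 97.1%, 93.4%, 72.6% and 20.7%. TGATAA was in 28.1%, 20.6%, 23% and 23.4% along these bins of the optimal list. In the replicates' own lists it averaged 27.8% ± 0.608, 22.2% ± 1.06, 21.7% ± 0.968 and 20.1% ± 1.24 from the strongest bin to the weakest (SD, n = 3 each), a smaller range than that of CACGTG. Members with CACGTG had a median rank of 2610, against 4018 for members without it, and a median GC content of 44.8%, against 37.8%. The part of base composition in these shares was not tested within the members.

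**Figure D4:**
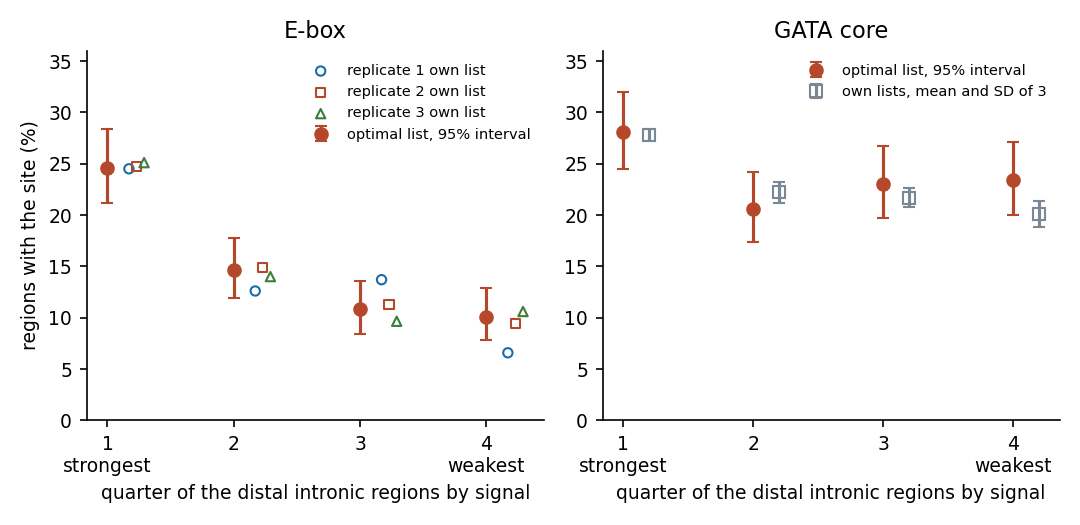
Share of distal intronic regions with CACGTG (left) and with TGATAA (right) in 4 bins by signal, strongest first, with 95% Wilson intervals for the optimal list. Open symbols are the replicates' own lists, as single replicates on the left and as mean and SD of 3 on the right. CACGTG stands at 24.6% in the strongest bin and 10.1% in the weakest, while TGATAA lies between 20.6% and 28.1%, and its replicate means between 20.1% in the weakest bin and 27.8% in the strongest.

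Beyond the E-box, members carried the listed GATA cores more often than background regions, and the TGATAA call held under all 11 alternatives. All hexamer classes, each a sequence of 6 letters joined with its reverse complement, were tested for presence within 100 bp of the summit. Of these 119 (5.72%) were more frequent in members and 131 (6.30%) less frequent, with adjusted p under 0.05 (Fisher exact test, two-sided, Benjamini-Hochberg over all classes). Against the background regions above the median of signal, 14 were more and 6 less frequent. CACGTG had the lowest p. TGATAA, the fourth by p, was in 521 members (23.8%) and 979 background regions (15.8%). Its odds ratio was 1.66 (1.47 to 1.87; adjusted p = 2.2e-13, Fisher exact test). It was in 13.2% of all windows of the class. In optimal promoter, deep intronic and distal intergenic regions it was in 20.2%, 15.2% and 18.5%. Of the other GATA cores listed, AGATAA was in 16.3% of members and 13.7% of background regions (1.23, 1.08 to 1.41; adjusted p = 0.0314, Fisher exact test) and in 11.9% of all windows. TGATAG was in 7.71% and 5.82% (1.35, 1.12 to 1.63; adjusted p = 0.0256, Fisher exact test), and in 5.67% of all windows. In the same optimal classes, in that order, AGATAA was in 14.2%, 16.4% and 15.8%, and TGATAG in 6.78%, 8.91% and 6.11%. The AGATAA call was lost in 8 of 11 alternatives, and TGATAG was not put through them. In the replicates' own lists TGATAA averaged 23% ± 0.511 in the strongest regions and 15.6% ± 0.865 in the remaining ones (SD, n = 3 each). It was about as common in members with CACGTG (23.1%) as in members without it (23.9%).

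GAGAGA, the repeat bound by GAGA factor, was in 12.9% of members and 9.20% of background regions, and in 7.48% of all windows. It was also in 12.9% of optimal promoter, 14.4% of deep intronic and 8.61% of distal intergenic regions. Its odds ratio against background was 1.46 (1.25 to 1.70), and Fisher's exact test gave an adjusted p of 1.2e-04. The listed E-box relatives were also more frequent. CACGCG, a site of bHLH-Orange proteins, was in 7.71% of members and 5.24% of background regions, and in 3.20% of all windows. Its odds ratio was 1.51 (1.25 to 1.83), with an adjusted p of 0.00129 by Fisher's exact test. CACGTT was in 11.0% and 8.0% (odds ratio 1.42, adjusted p = 0.00108), and CACGAG in 7.12% and 5.30% (odds ratio 1.37, adjusted p = 0.0271), in members and background regions by the same Fisher exact test. All windows of the class held these 2 in 6.07% and 3.90%. In optimal promoter, deep intronic and distal intergenic regions, in that order, CACGCG was in 8.42%, 5.46% and 7.22%. CACGTT was in 10.7%, 10.9% and 7.78% of them, and CACGAG in 6.18%, 5.75% and 6.39%. For these motifs differences between classes were not tested. Against the stronger background regions, those above the background median of signal, these 4 calls were lost in Fisher exact tests, as was that of AGATAA. Fewer background regions were in that comparison. The odds ratios there were 1.39 for CACGCG (adjusted p = 0.123, Fisher exact test), 1.32 for GAGAGA (0.0961), 1.21 for CACGTT (0.382) and 1.40 for CACGAG (0.125). TGATAA and CACGTG passed there. Within 50 bp of the summit CACGAG (1.45, adjusted p = 0.0775, Fisher exact test) and GAGAGA (1.32, 0.124) were lost too, and without secondary summits CACGAG (1.32, 0.0800).

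E-boxes of tissue-specific bHLH factors, other E-box variants and the Zelda core did not pass, with adjusted p from 0.375 to 0.981 in Fisher exact tests. CAGCTG was in 7.58% of members and 7.42% of background regions, with an odds ratio of 1.02 (0.850 to 1.23), and in 7.51% of all windows. CAGGTG was in 6.44% and 6.26%, with 1.03 (0.844 to 1.26), and in 6.66% of all windows. The variant CACATG was in 12.3% and 12.2%, with 1.01 (0.867 to 1.17), and in 9.61% of all windows, and the variant CATATG in 7.80% and 7.29%, with 1.08 (0.896 to 1.29), and in 6.35% of all windows. CAGGTA, the core of the early embryonic factor Zelda, was in 4.38% and 3.70%, with 1.19 (0.934 to 1.52), and in 4.03% of all windows.

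None of 5 control palindromes passed. In members and background regions GACGTC was in 2.69% and 2.18%, CTCGAG in 2.65% and 3.10%, GTCGAC in 2.28% and 2.28%, TCCGGA in 0.958% and 1.44%, and GGATCC in 1.19% and 1.75%. All windows of the class held them in 1.83% to 2.73%. Motifs of 8 letters were only counted. TATCGATA, an element of housekeeping promoters, was in 0.319% of members and 0.323% of background regions, against 3.00% of optimal promoter regions and 0.415% of all windows. The bZIP site TTACGTAA was in 0.411% of members and 0.275% of background regions, and in 0.248% of all windows. Its relative TTATGTAA was in 1.78% of members and 1.52% of background regions, and in 1.47% of all windows.

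Base composition moved with the hexamer counts. Members had a median GC content of 39.3% and background regions 41.3%, and 17 of the 119 more frequent classes held only A and T, against 36 of all classes. None of the 131 less frequent classes did. Of the 119, 13 contained GATA and 16 contained CACG, one side of the E-box, on either strand, against 48 each among all classes. Of the 131, 1 contained GATA and none CACG. With odds ratios stratified by GC content, 69 classes were more frequent and 45 less frequent. TGATAA then had 1.61 and CACGTG 3.67, and both passed. AGATAA had 1.17 and did not pass.

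Members lay nearer to a TSS than background regions, and more often nearest to that of their own gene. The nearest TSS was a median of 2831 bp away in members and 3490 bp in background regions, and 52.3% of members and 43.1% of background regions lay within 3000 bp. The nearest TSS belonged to a gene that held the summit in 75.4% of members (73.6 to 77.2) and 66.6% of background regions (65.4 to 67.7). The odds ratio was 1.54 (1.38 to 1.72; adjusted p = 1.8e-14, Fisher exact test, two-sided, over 3 position measures). Replicates 1, 2 and 3 gave 76.3%, 75.5% and 75.6% for their strongest regions, against 66.9%, 66.5% and 66.5% for the remaining ones. For the other members the nearest start was that of a neighbouring or nested gene, as at kis, where it was lncRNA:CR44218. Background regions, unlike members, had to lie over 1000 bp from every optimal summit, promoter summits included. The own-gene odds ratio moved with that limit. It was 1.44 with every other pooled region of the class as background and 2.20 with background over 5000 bp from every optimal summit. The part of this limit in the TSS distances was not tested.

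The summit lay in the first intron of a transcript in 69.3% of members (67.4 to 71.2) and 62.0% of background regions (60.8 to 63.2). The odds ratio was 1.38 (1.25 to 1.54; adjusted p = 1.2e-09, Fisher exact test), and the replicates averaged 69.8% ± 0.570 and 61.2% ± 0.451 (SD, n = 3 each). This ratio also moved with the background limit. It was 1.30 against every other pooled region of the class and 1.82 against background over 5000 bp from every optimal summit. An intron ahead of the start codon held 48.0% of both sets. Long introns, over 5000 bp between exons, held 60.4% of members and 66.3% of background regions, with an odds ratio of 0.778 (0.703 to 0.860; adjusted p = 1.1e-06, Fisher exact test). That difference ended when regions were compared at like distance from a TSS (0.952, p = 0.402, stratified Mantel-Haenszel test), and with the strongest region of each intron only (1.00, p = 0.974, Fisher exact test). The own-gene and first-intron differences passed in both settings. The E-box share was higher in members in each of 9 distance bins of 1000 bp, from 12.1% to 22.0% in members and from 4.81% to 7.45% in background regions.

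The members lay in 1009 genes, 49.0% of the 2060 genes that held any pooled distal intronic region. Each member was counted for 1 gene, and the 142 members inside several genes for the shortest protein-coding one. In 525 genes there was 1 member and in 329 there were 2 or 3. In 155 genes there were 4 or more, and these held 895 members (40.8%). Members occupied 1347 introns, and 467 introns held 2 or more. Genes with many members were long and had many pooled regions. Genes with a member had a median length of 18061 bp and 5 pooled regions, against 13724 bp and 2 for the 1051 genes without one. An optimal summit also lay within 1000 bp of a TSS of 61.7% (58.7 to 64.7) of genes with a member, against 38.0% (35.1 to 40.9) of the genes without one. That share was 84.5% of the 155 genes with 4 or more members. The part of gene length in it was not tested.

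Eip75B, a nuclear receptor gene of the ecdysone response, held the most members, 21 of its 55 pooled regions, in 6 introns. Its strongest ranked 802, and 11 of the 21 were in all 3 replicates. tara followed with 18 of 28, and shn, which encodes a zinc finger cofactor of Dpp signalling, with 17 of 30. No shn member had CACGTG. These are counts of summits, and some neighbouring summits shared a replicate region. In shn those at 48.231 and 48.431 kb from the gene's start both had replicate ranks of 413, 309 and 406. ush and Pdp1 had 13 each, CG3764 had 12 of 12 pooled regions, and CG46467, Mob2 and bun had 11 each. CG5151, mam, the Notch coactivator, and Mef2, the muscle transcription factor, had 10 each. cwo held 9 of 11 in 1 intron, with ranks of 15 to 5881 and CACGTG in 2. All 9 lay in strongest regions of every replicate, some of them in the same replicate region. Reads from a tagged copy of cwo can fall on these positions too, and their part in the cwo values was not tested.

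**Figure D5:**
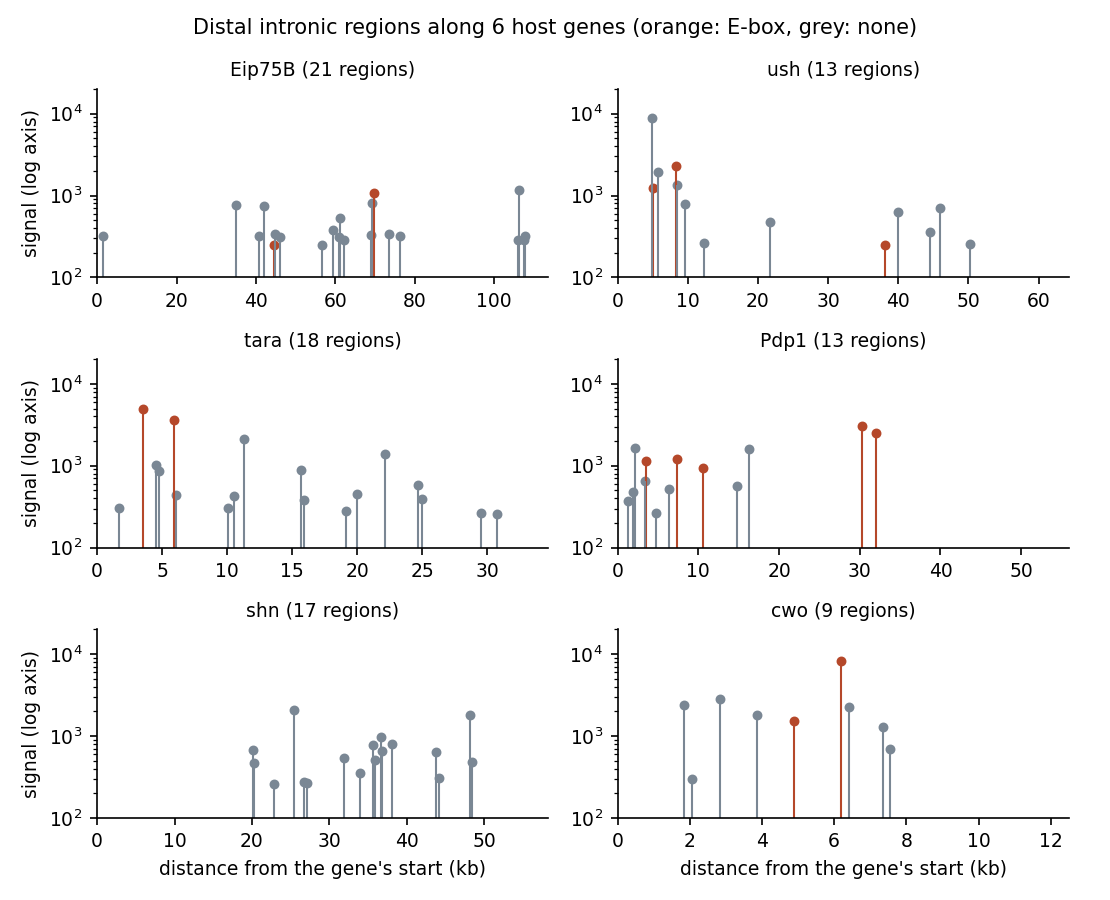
Signal in the optimal list (log axis) of each distal intronic region along 6 host genes, by distance from the gene's start in its own direction, over the full length of each gene. Orange marks regions with CACGTG and grey those without, and the 5 genes with the most members are shown with cwo. The regions of cwo lie between 1.847 and 7.559 kb from its start, and none of the 17 in shn has CACGTG.

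Clock genes with distal intronic regions were counted by role. Gene counts here and for the lists below are out of the listed genes with a pooled region of the class. Of all 2060 genes with such a region 49.0% held a member. The clock loop list had 8 genes, and 3 of them, cwo, Pdp1 and vri, had a pooled region of the class. These 3 held members, 27 of 52 pooled regions (51.9%, against 22.8% for the whole class). The core clock genes per, tim, Clk, cyc and cry had no pooled region of the class. Pdp1, the activator of Clk, had 13 members and CACGTG in 5 of them, the strongest at rank 120 with replicate ranks of 143, 130 and 128. vri, the repressor of Clk, had 5, the strongest at rank 598 with replicate ranks of 727, 553 and 630. Among 10 listed kinases and phosphatases that act on clock proteins, 6 had a pooled region of the class and 5 of these held a member. Of their 42 pooled regions 12 were members (28.6%, against 22.8% for the class). sgg, the GSK3 kinase, had 3 with CACGTG in 2, nmo had 4 and wdb, a phosphatase subunit, had 2.

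The list named for the Myc and Max group had 8 genes, and 5 of them had a pooled region of the class. All 5 held members, against 49.0% of all genes with a pooled region. Of their pooled regions 18 of 40 were members (45.0%, against 22.8% for the class). Max, bigmax and SREBP had no pooled region of the class. Myc held 5 of 6, the strongest at rank 73 with replicate ranks of 70, 76 and 77. crp held 6, Mnt 4, Mondo 2 and tx 1. crp and tx were in this list but are bHLH genes outside the Myc and Max network. Among GATA factors and their cofactor, 3 of 5 genes held members, against 49.0% of all genes with a pooled region, and 16 of 50 pooled regions were members (32.0%, against 22.8% for the class). Of the 16, 13 lay in ush, 2 in GATAe and 1 in GATAd. Tissue bHLH and PAS factors had members in 4 of 8 genes and 10 of 35 pooled regions (28.6%), 6 of the 10 in sima, the hypoxia factor.

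Hormone and chromatin lists held many members. Of 15 listed ecdysone response genes 12 had a pooled region of the class, and 9 of these held members (49.0% for all genes with one). Members were 56 of 155 pooled regions (36.1%, against 22.8% for the class), 21 of them in Eip75B. By their strongest region ftz-f1, Eip74EF and Hr4 ranked highest in this list. The strongest region of Eip74EF, an ETS factor gene, ranked 290, with replicate ranks of 226, 355 and 311. That of Hr4, a nuclear receptor gene, ranked 493, with replicate ranks of 484, 478 and 559. Of 19 listed chromatin regulators 12 had a pooled region of the class, and 11 of these held members (49.0% for all genes with one). Members were 44 of 91 pooled regions (48.4%, against 22.8% for the class), with kis, Trl and tara the strongest. In this list 18 of the 44 lay in tara alone.

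The signalling lists given here ranged from 15.4% to 38.5% of their pooled regions, against 22.8% for the whole class. Dpp and activin genes had 30 of 78 pooled regions (38.5%), 17 of them in shn and 7 in Dad, an inhibitory Smad. EGF receptor genes had 25 of 94 (26.6%), with aos, pnt and aop the strongest of those matched, an inhibitory ligand and a pair of ETS factors. Raf, the kinase of this pathway, was listed under an older symbol that did not match and is not in that count. It held 9 of 17, the strongest at rank 228. Insulin and TOR genes had 10 of 37 (27.0%), in InR, foxo and S6k. Hippo genes had 8 of 30 (26.7%), Notch genes 15 of 67 (22.4%), Wingless genes 13 of 83 (15.7%) and Hedgehog genes 2 of 13 (15.4%). Of the 15 in the Notch list 10 lay in mam and 3 in Notum, which was listed there but encodes a secreted antagonist of Wingless.

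Lists of tissue, patterning and RNA-binding genes were near or below the share of the class (22.8%). The list of lipid and glucose genes was above it. Axon guidance and adhesion genes had 37 of 163 pooled regions (22.7%), with sli, the Robo ligand, fra, the Netrin receptor, and Dscam1 the strongest. Epithelial and tracheal genes had 9 of 42 (21.4%), muscle and heart genes 22 of 124 (17.7%), 10 of them in Mef2, and neuronal and glial identity genes 7 of 52 (13.5%). Hox genes had 2 of 17 (11.8%), in Abd-B and abd-A. Segmentation genes had 0 of 1. Developmental timing and RNA-binding genes had 22 of 110, with chinmo, pum and Imp the strongest. Lipid and glucose enzymes and their regulators had 10 of 34 (29.4%), with bmm, Gpdh1, the glycerol-3-phosphate dehydrogenase, and FASN1, a fatty acid synthase, the strongest. These lists are small and uneven, 1 or 2 genes carry several of them, and no list was tested.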

How the data were processed

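The authors deposited lists of enriched regions in narrowPeak layout for ChIP-seq of 3 biological replicates, with a signal value per region. Per the text deposited with each library, replicate lists came from a replicate alignment and a control alignment, and the pooled list from the alignments of the 3 replicates. The relaxed lists hold 30000 regions each and include background for the IDR procedure. Aligner, peak caller and IDR threshold: not given in the sources used here. Signal was used only to rank regions within a list.

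Summits on dm6 were placed against Ensembl release 115 (17683 genes and 35016 transcripts on 6 arms), without transposable elements and unnamed mature small-RNA records. Sequence came from the RefSeq dm6 genome. The dm3 lists were not used, since no annotation of that build was used here. Of 352 listed gene symbols 337 matched, and the others are in no count. The result of 1 gene list is not reported here.

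Hexamers and listed motifs were searched on both strands within 100 bp of the summit. Shares carry 95% Wilson intervals, and odds ratios were tested with two-sided Fisher exact tests and Benjamini-Hochberg adjustment (Python 3.11.15, scipy 1.17.1, statsmodels 0.14.6). The hexamer scan was checked on simulated data. To leave out a replicate, only optimal regions held by both others were kept. Overlapping motif hits were counted once per region.

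The members, lists and motifs were chosen with earlier results of these data known. The text names the 20 strongest members, the 10 host genes with the most members, with those tied at the end, and up to 3 genes per list. cwo, other listed genes with several members, Raf, simj and bon were named after their values were seen. Stratified odds ratios, the strongest region per intron and the settings for strength and host genes were alternatives chosen after seeing the data.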

Additional observations from a re-analysis of the deposited data

How the results depend on the processing

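CACGTG kept its direction and its call against background under all 16 alternatives (odds ratio 2.48 to 4.27, without a replicate 3.39 to 3.55) and the lowest p of all hexamers under 11 of 11. TGATAA kept both under 11 of 11 (1.49 to 1.77), and the first-intron (1.27 to 1.82) and own-gene (1.33 to 2.20) differences under 14 of 14. The first-intron and own-gene ratios were highest with background over 5000 bp from every optimal summit. The count of hexamer classes, 250 as reported (119 and 131), was 111 within 50 bp of the summit, 20 (14 more and 6 less frequent) against the stronger background regions, 91 beyond 2000 bp from a TSS, 148 up to 5000 bp, 131 for the stronger part of the optimal list, 114 stratified by GC content and 154 to 232 without a replicate. Against promoter, deep intronic and distal intergenic regions the CACGTG odds ratio passed beyond 2000 bp from a TSS (1.28, 1.44 and 1.51; adjusted p = 0.00938, 0.0463 and 0.0113, Fisher exact test) and with protein-coding TSSs (1.20, 1.41 and 1.37). Without secondary summits it passed against promoter and distal intergenic regions (1.20 and 1.36; adjusted p = 0.0305 each, Fisher exact test). Up to 5000 bp the ratio against deep intronic regions, which then include the members beyond that distance, reversed to 0.921 (adjusted p = 0.516, Fisher exact test). Without a replicate these 3 ratios were 1.17 to 1.18, 1.31 to 1.36 and 1.28 to 1.30. The long-intron ratio was 0.952 stratified by TSS distance and 1.00 with 1 region per intron, and 0.789 to 0.806 without a replicate. AGATAA, another GATA core, lost its call in 8 of 11 alternatives, CACGAG in 3, GAGAGA in 2 and CACGCG and CACGTT in 1 each. Replicate support was 83.7% for summits within 100 bp and 98.7% for any of the 30000 regions. The strength gap, 14.6 points, was 15.5 to 16.4 without a replicate. The cause of these shifts was not tested. Read depth is unknown, and the lists were made from the same 3 replicates, so leaving one out is a stricter choice and not a new call. No paired analysis was possible because the study has 1 group.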
